A study of Mus musculus with 2 samples.

Results

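The genes described here are the 8 core genes of the LIF-STAT3 pathway, Lif, Lifr, Il6st, Jak1, Jak2, Stat3, Socs3 and Socs2, out of 33963 genes in a single-cell RNA-seq count table. They were taken by gene symbol, a rule that uses no measured value, and all 8 were found. The study asked how primed mouse epiblast stem cells return to the naive state when AMPK is activated by AICAR together with leukemia inhibitory factor (LIF). For this, 5 populations were each marked with an oligonucleotide tag on antibodies to CD9 and CD63 and sequenced as 1 pooled library (BD Rhapsody, TAS-Seq), with 1 sample per population and the strain given as 129/Ola. The naive population was a mouse embryonic stem cell (mESC) line with a Rex1 promoter-driven GFP reporter, kept in 2iL, a medium with a MEK inhibitor, a GSK3 inhibitor and LIF. The primed population was the Oct4GIP line of mouse epiblast stem cells (mEpiSCs), which carries an eGFPiresPuro transgene under the Oct4 promoter and was grown with FGF2 and Activin A. Oct4GIP cells on mouse embryonic feeders (MEF) that received AICAR + LIF were collected on day 8 (d8) and day 16 (d16). Cells that were grown on in 2iL for 10 passages after such a 16-day treatment formed the d16+10p population. All 5 populations were pooled in 1 tube and captured together, so the d16+10p cells stem from an earlier culture than the d16 cells. A difference between these 2 is thus also a difference between cultures. LIF was thus supplied to the naive, d8, d16 and d16+10p cultures, whereas the primed culture was kept with FGF2 and Activin A. Each line is a single line, so a difference between naive and the other populations is also a difference between lines.

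LIF binds its receptor LIFR, which pairs with the shared signal transducer gp130, the product of Il6st. The receptor-bound kinases JAK1 and JAK2 then phosphorylate STAT3, which enters the nucleus and switches on its target genes. Among these targets is Socs3, whose product binds gp130 and JAK and shuts the signal down, so the pathway limits itself. In naive mESCs, LIF and STAT3 sustain self-renewal through factors such as Klf4 and Tfcp2l1, whereas mEpiSCs are maintained by FGF2 and Activin A and do not depend on LIF. What is measured here is RNA: phosphorylation of STAT3, the activity of the kinases and the LIF protein in the medium were not.

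The table held 17720 cells, with 3179 to 111822 reads per cell. Levels are given as CPM, the summed reads of a gene over the cells of a group, scaled to a total of 1000000 reads. The d16 cells were split by their level of Dppa5a, a gene of naive pluripotent cells, into 1278 cells with at least 1000 CPM (d16 high) and 3037 cells below it (d16 low), and 295 d16 cells (6.84%) lay between 500 and 2000 CPM. The other groups were 801 naive, 1826 primed, 9627 d8 and 1151 d16+10p cells, and the median depth ran from 8691 reads per cell in d16 low to 21551 in d16+10p. Of 18 cell clusters, 4 were Pou5f1-high (clusters 5, 7, 11 and 12), and they held 94.4% of d16 high, 81.1% of d16+10p and 70.3% of naive cells. They held only 25.8% of the cells with the primed tag, of which 1826 were recovered although 500 were loaded, and 2.14% of d16 low and 0.343% of d8 cells. Under the other tags, 801 naive, 9627 d8, 4315 d16 and 1151 d16+10p cells were recovered, with 500, 9000, 9000 and 1000 loaded. The 7 fibroblast markers, all of them read in every group, summed to 1721 CPM over all primed-tagged cells and to 463.6 CPM over those in Pou5f1-high clusters. In the same order, epithelial markers summed to 1259 and 586 CPM, macrophage markers to 732.3 and 252.3 CPM, and smooth muscle markers to 406.8 and 213.7 CPM. Pluripotent markers (1064 and 1688 CPM) and primed epiblast markers (278.5 and 303.3 CPM) rose. By cluster, 429 primed-tagged cells lay in cluster 2 (led by Fgf15 and Lefty1) and 418 in cluster 12. A further 238 lay in the fibroblast-like cluster 6 and 158 in the epithelial-like cluster 1. Values of naive, primed and d16+10p cells are therefore given both for all cells of the tag and for cells in Pou5f1-high clusters. The d8, d16 low and d16 high cells were used whole in both settings. All intervals are 95% and cover counting error only: reads, not molecules, were counted, and with 1 sample per population no difference has a replicate check or a p-value. A difference is called 2-fold when the log2 ratio, with 1 CPM added to both levels, is at least 1 in size and the gene has at least 10 CPM in either group.

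Free RNA sets a floor under all levels. Genes of macrophages and of naive cells had a median level, outside the cluster that makes them, of 11.1% (Lyz2) to 39.5% (Csf1r) of their level over all cells. No cluster of at least 100 cells was that empty of Lifr, Il6st, Jak1, Socs3 or Socs2, whose lowest cluster stood at 43.7% or more of the level over all cells. For Lif, Jak2 and Stat3 the lowest cluster stood at 31.5%, 28.2% and 32.5%, within the range of free RNA. No cell type in the table is known to lack these genes, so the share of cells with a read has no background measured in such a type.

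Lif, the ligand (chr11:4257557-4272514, plus strand; this and all gene positions are from GENCODE M21 on GRCm38), was read most in d8 cells. It stood at 6.09 CPM in naive, 6.10 CPM in primed, 10.2 CPM in d8, 4.79 CPM in d16 low, 4.86 CPM in d16 high and 4.69 CPM in d16+10p cells. The d8 interval, 9.74 to 10.7 CPM, lay above the other 5, which overlapped one another. After thinning every cell to 5000 reads, 4.51% of d8 cells had a Lif read, against 1.90 to 2.70% in the other groups. The d8 level was 1.58-fold that of all primed-tagged cells, a log2 ratio of 0.66 (0.51 to 0.98). Against the primed cells of Pou5f1-high clusters, where Lif stood at 3.18 CPM, it was 2.68-fold (log2 ratio 1.42, 1.19 to 2.21). Within the d8 culture the ligand was not spread evenly. Among clusters with at least 50 d8 cells, the 151 d8 cells of cluster 14, led by Krt15, were highest at 22.8 CPM (17.5 to 29.3). The d8 cells of the epithelial-like cluster 1 followed at 13.5 CPM. Over the cells of all populations, cluster 1 held 24.1% of all Lif reads and 15.2% of the reads of all genes. The Pou5f1-high clusters were low, from 2.57 CPM in the primed cluster 12 to 5.30 CPM in cluster 5, where most d16 high cells lay.

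**Figure D1:**
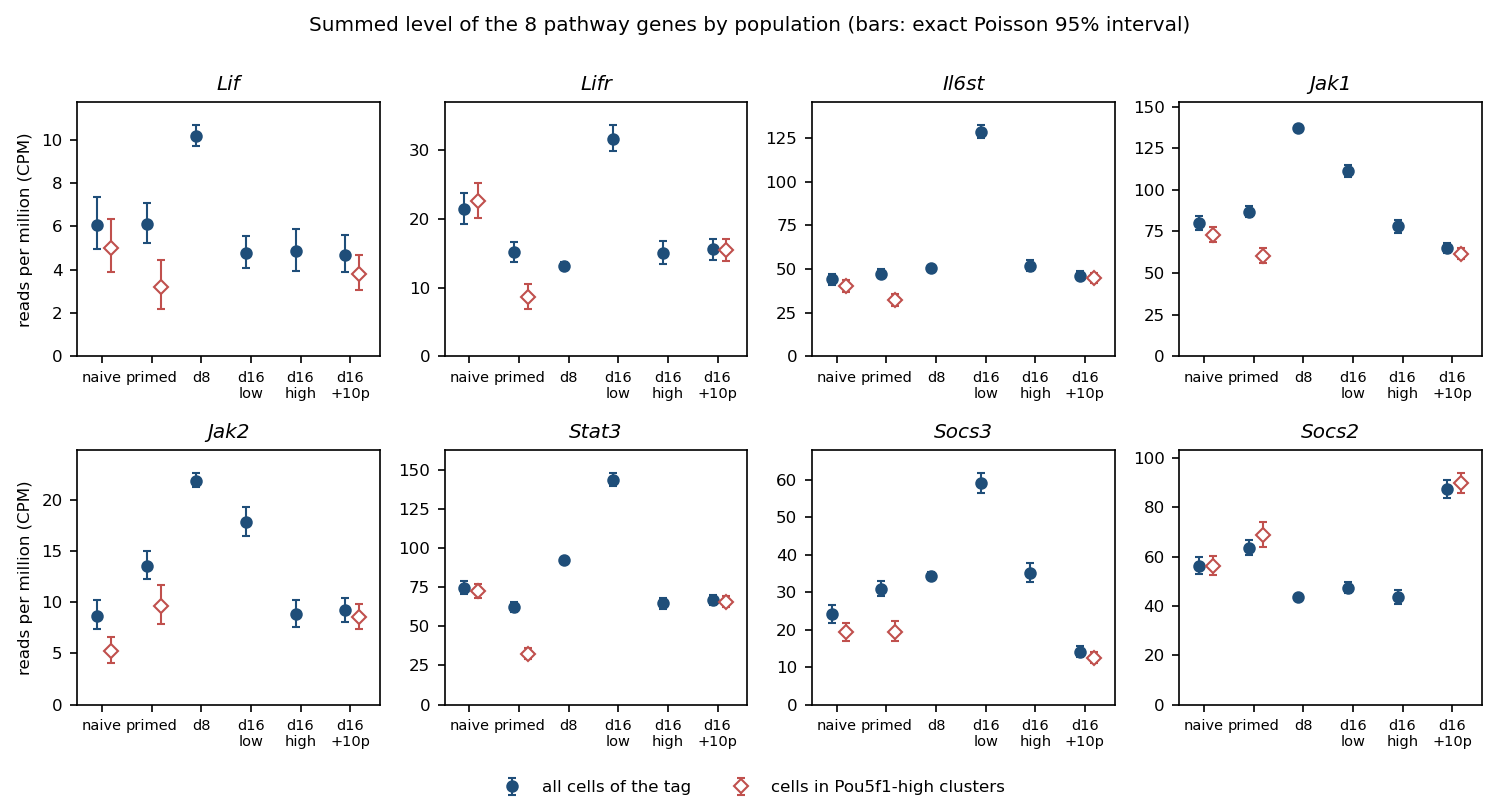
Summed level of each gene (vertical axis, CPM, from 0, with its own scale per gene) in the 6 groups of cells (horizontal axis). Filled circles are all cells of a tag, open diamonds the naive, primed and d16+10p cells in Pou5f1-high clusters, and bars exact Poisson 95% intervals for counting error. Lifr, Il6st, Stat3 and Socs3 stand highest in d16 low cells, Lif, Jak1 and Jak2 in d8 cells, and Socs2 in d16+10p cells, where Socs3 is lowest.

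Lifr is the receptor chain that gives the complex its specificity for LIF (chr15:7090614-7197489, plus strand). In summed reads it separated naive from primed cells once the mixed primed tag was narrowed. Over all cells it stood at 21.4 CPM in naive, 15.2 CPM in primed, 13.1 CPM in d8, 31.7 CPM in d16 low, 15.1 CPM in d16 high and 15.6 CPM in d16+10p cells. D16 low was highest and naive next, and the intervals of primed, d16 high and d16+10p overlapped. In Pou5f1-high clusters Lifr was at 22.5 CPM (20.1 to 25.2) in naive, 8.61 CPM (6.94 to 10.6) in primed and 15.4 CPM (13.8 to 17.1) in d16+10p cells, and these intervals did not overlap. Primed cells were thus 2.45-fold lower than naive cells there (log2 ratio -1.29, -1.74 to -1.05), against 1.38-fold lower over all cells of the tags. After thinning, 7.39% (5.35 to 9.89%) of the naive cells of those clusters had a Lifr read. The shares were 3.48% (2.00 to 5.59%) in primed and 8.49% (6.77 to 10.5%) in d16+10p cells. The naive interval overlapped both of these, which did not overlap each other. The order of naive above d16+10p thus held in summed reads only. In CPM the d16 high cells, with an interval of 13.4 to 16.8 CPM, lay between the primed and naive cells of those clusters. Over all cells, Lifr in d16+10p was at 1.03-fold the d16 high level (log2 ratio 0.04, -0.17 to 0.26). The highest Lifr of any cluster, 91.7 CPM (72.1 to 115), was in cluster 15, which had 78 cells, 64 of them d16 low, and was led by Hp and Fgg. Of the clusters with at least 100 cells, cluster 3 was highest at 34.9 CPM and cluster 12 lowest at 8.79 CPM, with cluster 1 in the same range.

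Il6st, the gp130 chain shared by the whole IL-6 cytokine family (chr13:112464070-112510086, plus strand), lay within a narrow range in 5 of the 6 groups and was high in d16 low cells. It stood at 44.2 CPM in naive, 47.2 CPM in primed, 50.7 CPM in d8, 128.6 CPM in d16 low, 51.9 CPM in d16 high and 46.2 CPM in d16+10p cells. The d16 high cells were 2.45-fold lower than d16 low cells (log2 ratio -1.29, -1.41 to -1.21). After thinning, 39.0% of d16 low cells had an Il6st read, against 17.6 to 20.1% in the other groups. Of the d16 low cells, 54.3% lay in cluster 3, led by Fabp7, Rfx4 and Aqp4, and had 143 CPM there. A further 23.8% lay in the fibroblast-like cluster 6, where they had 172.9 CPM. In Pou5f1-high clusters the levels were 40.2 CPM (36.9 to 43.7) in naive, 32.3 CPM (29.0 to 35.9) in primed and 44.8 CPM (42.2 to 47.7) in d16+10p cells. Primed cells were the lowest of these, at 1.24-fold below naive cells.

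Jak1, the main kinase bound to gp130 (chr4:101152367-101265282, minus strand), was highest in d8 cells. It was read at 80.1 CPM in naive, 87.0 CPM in primed, 137 CPM in d8, 111 CPM in d16 low, 78.1 CPM in d16 high and 65.0 CPM in d16+10p cells. The naive interval overlapped those of primed and d16 high, and d16+10p lay below every other group. The d8 level was 1.57-fold that of all primed-tagged cells (log2 ratio 0.65, 0.60 to 0.72) and 2.25-fold that of primed cells in Pou5f1-high clusters (1.17, 1.07 to 1.30), which had 60.4 CPM. Jak1 was at 189 CPM both in the fibroblast-like cluster 0, led by Lox, and in the macrophage-like cluster 8, and both consisted mostly of d8 cells. The name of cluster 0 rests on Dcn, Postn and Thy1, while the fibroblast markers Col1a1, Col1a2, Col3a1 and Lum did not meet the marker rule there. The smooth muscle markers Acta2 and Tagln also met it.

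Jak2, the second kinase of the complex (chr19:29251828-29313080, plus strand), had the same order of groups at its upper end. It was read at 8.70 CPM in naive, 13.6 CPM in primed, 21.9 CPM in d8, 17.9 CPM in d16 low, 8.86 CPM in d16 high and 9.23 CPM in d16+10p cells. The naive, d16 high and d16+10p intervals overlapped, and the other 3 groups lay above them without overlap. In Pou5f1-high clusters it was at 5.22 CPM (4.09 to 6.57) in naive, 9.64 CPM (7.87 to 11.7) in primed and 8.59 CPM (7.44 to 9.87) in d16+10p cells. All 3 lay under the 10 CPM that a 2-fold call requires, and primed and d16+10p overlapped. In d8 it was 2.16-fold the level of primed cells in Pou5f1-high clusters (log2 ratio 1.11, 0.90 to 1.48) and 1.57-fold that of all primed-tagged cells. The fibroblast-like cluster 0 had 29.5 CPM and held 25.7% of all Jak2 reads, with 15.7% of the reads of all genes.

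Stat3, the transcription factor of the pathway (chr11:100885098-100939540, minus strand), was, like Lif, far lower in the primed cells of Pou5f1-high clusters than over the whole primed tag. Over all cells it was read at 74.9 CPM in naive, 62.4 CPM in primed, 92.3 CPM in d8, 144 CPM in d16 low, 64.9 CPM in d16 high and 67.2 CPM in d16+10p cells. D16 low was highest, then d8, then naive, and the intervals of primed, d16 high and d16+10p overlapped. In Pou5f1-high clusters the primed level was 32.3 CPM (29.0 to 35.9), against 72.5 CPM (68.1 to 77.1) in naive and 65.9 CPM (62.6 to 69.3) in d16+10p cells. There primed cells were 2.21-fold below naive cells (log2 ratio -1.14, -1.35 to -0.99), whereas over all cells of the tags they were 1.20-fold below. After thinning, 13.9% (10.9 to 17.4%) of the primed cells of those clusters had a Stat3 read, against 27.0% (23.4 to 30.9%) of naive and 26.5% (23.7 to 29.5%) of d16+10p cells. The d16 high cells were 1.98-fold above these primed cells (log2 ratio 0.98, 0.83 to 1.18), just short of a 2-fold call, and 1.04-fold above all primed-tagged cells. In d8 the level was 2.80-fold that of the primed cells in Pou5f1-high clusters (1.49, 1.36 to 1.67) and 1.47-fold that of all primed-tagged cells. Among clusters of at least 100 cells, Stat3 ran from 29.4 CPM in cluster 12 to 173 CPM in cluster 3, with 170 CPM in the neural-like cluster 13. On the opposite strand Stat3 overlaps Stat5a, which was read at 3.16 to 5.48 CPM, and Jak1 overlaps Raver2. Whether the counting used strand is not stated in the sources used here, so reads of the overlapping ends cannot be told apart.

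Socs3, the feedback inhibitor (chr11:117966079-117970047, minus strand), showed the largest difference between d16 high and d16+10p cells of the 8 genes. It was read at 24.1 CPM in naive, 30.9 CPM in primed, 34.4 CPM in d8, 59.0 CPM in d16 low, 35.1 CPM in d16 high and 14.0 CPM in d16+10p cells. D16+10p was below and d16 low above all other groups, and d16 high overlapped both primed and d8. Expanded d16+10p cells were 2.41-fold below d16 high cells (log2 ratio -1.27, -1.51 to -1.14) and 1.68-fold below naive cells (-0.74, -0.99 to -0.58). After thinning, 6.56% (5.16 to 8.21%) of d16+10p cells and 12.9% (11.1 to 14.9%) of d16 high cells had a Socs3 read. The same gap was present inside cluster 7, to which both groups contributed: 887 d16+10p cells had 12.4 CPM (11.0 to 13.9) and 77 d16 high cells had 34.9 CPM (27.3 to 44.1). In Pou5f1-high clusters naive and primed cells had 19.3 CPM and 19.5 CPM, with overlapping intervals, and d16 high cells were 1.78-fold above the naive cells (0.83, 0.66 to 1.07). The highest Socs3 of any cluster, 139 CPM (115 to 167), was again in cluster 15, and the 56 cells of the 2-cell-like cluster 16 had 73.9 CPM (56.3 to 95.3).

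The promoters of the members were searched for the core motif that STAT dimers bind, TTCNNNGAA, which reads the same on both strands. The search covered the 250 bases before the RefSeq start, on GRCm38.p6. Sequences were given for 7 of the 8 genes (8 promoters, with 2 for Lifr), and there was none for Socs2. Only the Socs3 promoter held the motif, 1 time, and of all 32851 promoters in the same set 7.02% held it. The 11 promoters given for 10 of the 14 STAT3 target genes described further on held it 0 times. The site lies 154 to 146 bases before the RefSeq start. Its surroundings are shown for the stretch that no GENCODE exon covers (chr11:117969452-117969616, minus strand), with the motif in capitals.
Socs3: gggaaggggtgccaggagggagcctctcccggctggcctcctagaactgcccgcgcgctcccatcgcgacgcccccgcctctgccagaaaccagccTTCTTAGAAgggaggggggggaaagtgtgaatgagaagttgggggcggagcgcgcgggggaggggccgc
The match describes the letters of this window, and binding was not measured.

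Socs2, a relative of Socs3 known best as a brake on growth hormone signalling (chr10:95385362-95417180, minus strand), differed between d16 high and d16+10p cells in the direction opposite to Socs3. It was read at 56.4 CPM in naive, 63.7 CPM in primed, 43.7 CPM in d8, 47.4 CPM in d16 low, 43.5 CPM in d16 high and 87.4 CPM in d16+10p cells. D16+10p was highest and primed next, and d16 high overlapped both d8 and d16 low. Expanded cells were 1.99-fold above d16 high cells (log2 ratio 0.99, 0.89 to 1.12) and 1.54-fold above naive cells (0.62, 0.52 to 0.74). In Pou5f1-high clusters the first of these ratios was 2.04-fold (1.03, 0.93 to 1.16). Inside cluster 7, Socs2 was at 89.2 CPM (85.3 to 93.2) in d16+10p and 47.2 CPM (38.3 to 57.7) in d16 high cells. After thinning, 29.6% of d16+10p cells had a Socs2 read, against 14.9% of d16 high cells. In summed reads Socs2 was, with Jak2, a member that stood higher in primed than in naive cells of Pou5f1-high clusters, at 69.0 CPM (64.1 to 74.2) against 56.3 CPM (52.4 to 60.4). The thinned shares of these cells with a read overlapped for both genes. They were 25.2% (21.3 to 29.4%) in primed and 23.1% (19.6 to 26.8%) in naive cells for Socs2. For Jak2 they were 3.91% (2.34 to 6.11%) and 2.52% (1.39 to 4.20%). The highest Socs2 clusters were the neural-like cluster 13 at 139 CPM, cluster 9 (led by Cer1 and Lhx1) at 119.2 CPM, and cluster 2 (led by Fgf15 and Lefty1) at 92.7 CPM, while the macrophage-like cluster 8 was lowest at 22.0 CPM.

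**Figure D2:**
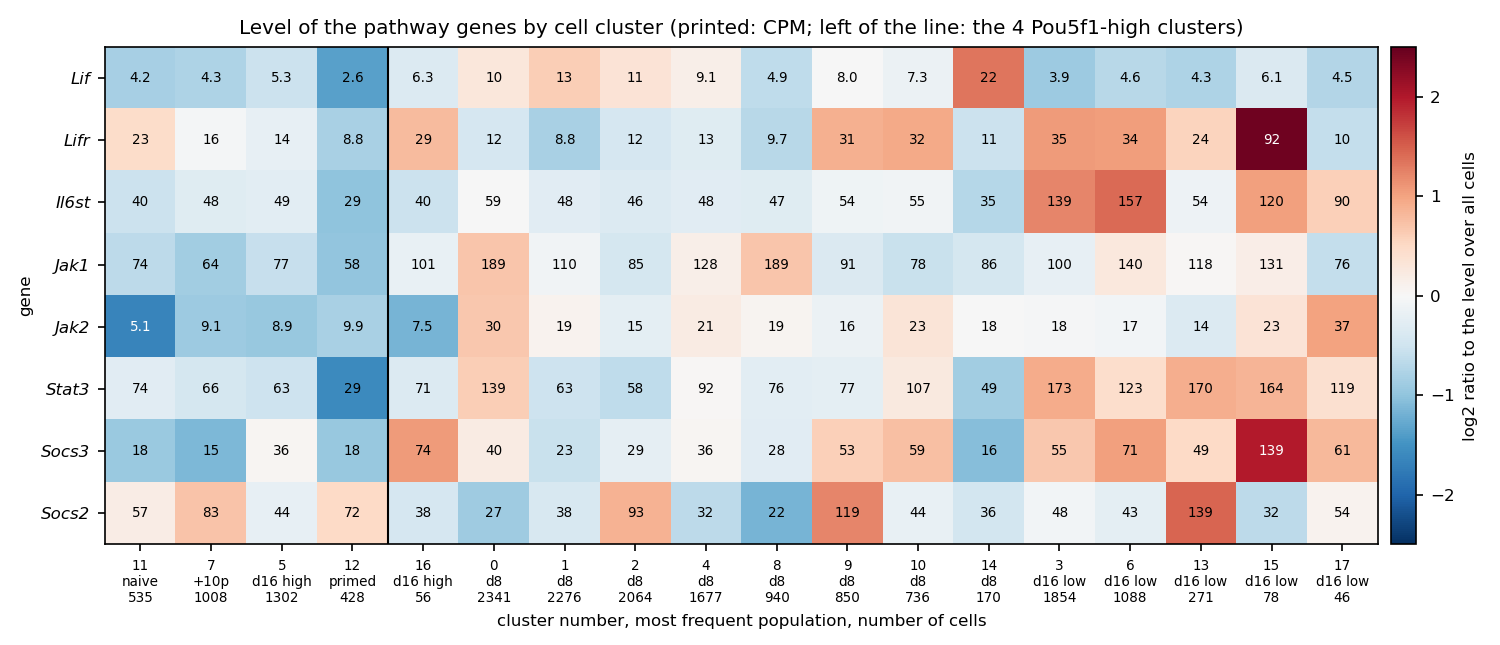
CPM of each gene (rows) in the 18 cell clusters (columns, with the most frequent population and the number of cells), printed in each field. Colour is the log2 ratio to the gene's level over all cells, and the 4 Pou5f1-high clusters stand left of the line. The primed cluster 12 is the lowest of the clusters with at least 100 cells for Lif, Lifr, Il6st, Jak1 and Stat3, and cluster 15 is high for Lifr and Socs3.

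Across the 15 clusters with at least 100 cells, the highest level was between 3.26 times (Jak1) and 8.66 times (Lif) the lowest. Cluster 12, with 428 cells of which 418 carried the primed tag, was lowest for Lif, Lifr, Il6st, Jak1 and Stat3, but not for Jak2, Socs3 or Socs2. The receptor chains, Stat3 and Socs3 followed one another over these clusters, with Pearson correlations of log2(CPM + 1) of 0.75 (Stat3 and Socs3), 0.74 (Il6st and Socs3), 0.73 (Il6st and Stat3), 0.70 (Lifr and Socs3) and 0.68 (Lifr and Il6st). Jak1 and Jak2 had 0.67 with each other, and Socs2 had its most negative value, -0.54, with Jak1. These are descriptions over n = 15 clusters of 1 library, which share its amplification and free RNA and differ in depth. Of 11265 genes with at least 20 CPM in at least 1 of these clusters, the genes most like each member in the same measure were as follows. For Lifr they were Clip4, Gpc3 and Clmn (0.83 to 0.85), and for Il6st Ccdc3, Igf2 and Col23a1 (0.94 for each). Phlda3, Polk and Fam13b were most like Lif (0.94 to 0.95). Tmem50a, Mtpn and Timp2 were most like Jak1 (0.93 to 0.97), and Rhoq, Tpt1 and Ube2j1 most like Jak2 (0.93 for each). Slc38a10, 4930402H24Rik and Tmub2 were most like Stat3 (0.88 to 0.91). Ext2, Gfpt1 and Arl5a were most like Socs3 (0.90 to 0.91), and Mycl, Bicd1 and Casp2 most like Socs2 (0.86 to 0.88).

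The 8 members were then counted over 7 comparisons, each beside the share of all genes that were 2-fold apart. Primed against naive had 0 of 8 members 2-fold apart over all cells of the tags, where 7 members reached 10 CPM and 8.25% of 10549 genes were called. In Pou5f1-high clusters Lifr and Stat3 were 2-fold lower in primed cells, 2 of the 6 members that reached 10 CPM, against 10.9% of 10196 genes. The median log2 ratio of those 6 members was -0.29, and that of all genes 0.02.

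D8 against primed had 0 of 8 members 2-fold apart over all cells, with 6.81% of genes called, although Lif, Jak1, Jak2 and Stat3 were 1.47-fold to 1.58-fold higher in d8. Against the primed cells of Pou5f1-high clusters, these 4 members were called, all higher in d8, where 22.6% of genes were called. Socs2 was lower in d8 in both settings, by 1.45-fold and 1.57-fold. Lifr was 1.15-fold lower in d8 than in all primed-tagged cells and 1.47-fold higher than in the primed cells of Pou5f1-high clusters. TMM scaling, which centres most genes, moved d8 against primed ratios up by 0.10 (before 1 CPM is added) and turned the direction of no member. Marker levels moved with this comparison: the 7 macrophage markers summed to 2898 CPM in d8 cells and 252.3 CPM in the primed cells of Pou5f1-high clusters, and the 7 fibroblast markers to 1517 CPM and 463.6 CPM, with no marker at 0 in either. The 6 epithelial markers summed to 2695 CPM and 586 CPM, and the 5 smooth muscle markers to 1023 CPM and 213.7 CPM. Against all primed-tagged cells the fibroblast sum was lower in d8, at 1517 CPM against 1721 CPM. Their part in the result was not tested.

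D16 high against primed had 0 of 8 members 2-fold apart, both over all primed-tagged cells (11.3% of 10716 genes called) and in Pou5f1-high clusters (11.3% of 10388 genes called). In the first setting 7 members reached 10 CPM. Of the 6 members that reached 10 CPM in the second setting, Lifr, Il6st, Jak1, Stat3 and Socs3 were higher in d16 high cells, by 1.29-fold to 1.98-fold, and Socs2 was lower by 1.57-fold. D16 high against d16 low had Lifr, Il6st and Stat3 called, all lower in d16 high. There 7 members reached 10 CPM and 27.8% of 11348 genes were called. Jak2, at 1.92-fold lower (log2 ratio -0.94, -1.26 to -0.78), was just short of the call, and Lif was level at 1.01-fold. In d16 low cells, all 7 fibroblast markers were read and summed to 3533 CPM, against 538 CPM in d16 high cells. The macrophage (924 against 270 CPM), neural (279 against 105 CPM) and smooth muscle (530 against 228 CPM) sums were also higher in d16 low. Pluripotent markers, which include Dppa5a (576 against 6515 CPM), and 2-cell markers (10.3 against 32.8 CPM) were lower. Within d16 low, cluster 3 and the fibroblast-like cluster 6 had Stat3 at 176 and 123.6 CPM and Lifr at 35.6 and 34.9 CPM, while Il6st was higher in cluster 6. The part of these cell types in the difference was not tested.

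D16 high against naive had 0 of 8 members 2-fold apart over all cells (3.64% of genes called) and 0 in Pou5f1-high clusters (4.26%). In both settings only 6 members reached 10 CPM. D16+10p against naive likewise had 0 of 8 in both settings, with 6 members reaching 10 CPM and 1.48% and 2.06% of genes called. The members that differed most were Socs3 and Socs2, at 1.68-fold lower and 1.54-fold higher in d16+10p cells over all cells, followed by Lifr at 1.35-fold lower. That Lifr ratio (log2 -0.44) changed sign after thinning to 5000 reads per cell (log2 0.08). D16+10p against d16 high had 1 of 8 members called, Socs3, where 6 members reached 10 CPM and 2.19% of genes were called. In Pou5f1-high clusters Socs2 joined it, higher in d16+10p cells, where 2.36% of genes were called. The other 6 members differed by 1.20-fold or less over all cells. The medians of all genes in the 7 comparisons lay between -0.04 and 0.08 over all cells, on the log2 scale.

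**Figure D3:**
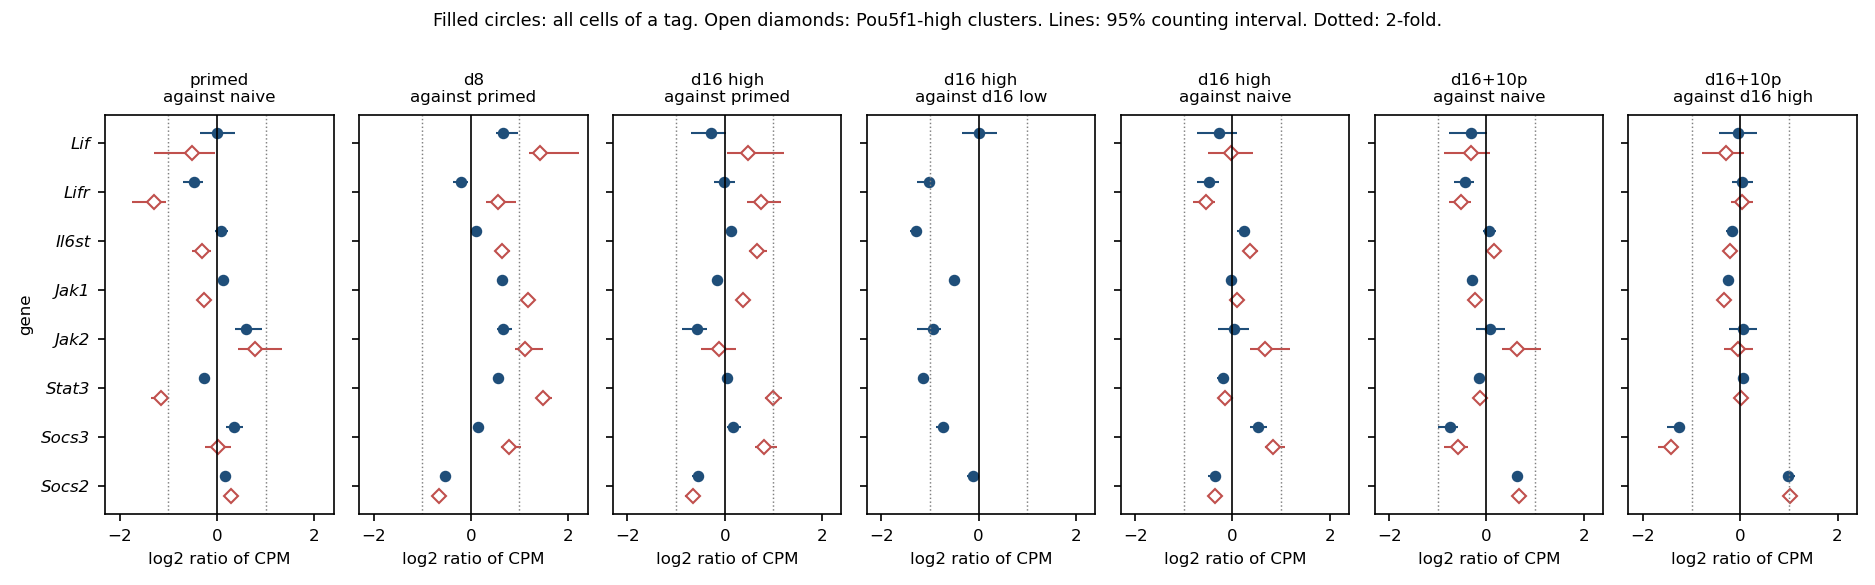
Log2 ratio of CPM (horizontal axis, with 1 CPM added to both levels) of each gene in the 7 comparisons (panels). Filled circles use all cells of a tag and open diamonds the naive, primed and d16+10p cells in Pou5f1-high clusters, lines are 95% counting intervals without the added 1 CPM, and dotted lines mark 2-fold. The diamonds of Stat3 and Lifr lie past 2-fold in primed against naive, and Socs3 and Socs2 move apart in d16+10p against d16 high.

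Around the members, 44 other genes of the gp130 and JAK-STAT system were counted, by role. Of the other ligands of the gp130 family, Il6 and Il11 were at 13.0 CPM and 12.0 CPM in d8 and under 10 CPM in the other groups. Among the 5 other receptor genes, Osmr, the partner of gp130 for oncostatin M, was at 29.2 CPM in d8 and 4.58 to 7.13 CPM in the other groups, 3.72-fold above all primed-tagged cells. Cntfr, the chain that binds ciliary neurotrophic factor, was highest in primed-tagged cells. It had 22.2 CPM there, 5.74 CPM in naive, 9.21 CPM in d8 and 5.10 CPM in d16 high cells, and 28.3 CPM in the primed cells of Pou5f1-high clusters. In d16 high against d16 low, the 2 receptor genes that reached 10 CPM, Il11ra1 and Cntfr, were both called lower in d16 high, where 27.8% of all genes were called. None of the 8 other kinases and STATs was 2-fold apart in any of the 7 comparisons over all cells, with 4 or 5 of them reaching 10 CPM.

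Of the 14 other inhibitors, Pias2, which codes for a SUMO ligase of the PIAS family, followed the naive state. It stood at 112 CPM in naive, 57.5 CPM in primed, 58.5 CPM in d8, 47.6 CPM in d16 low, 152 CPM in d16 high and 124 CPM in d16+10p cells. Gab1, a docking protein that links gp130 to other kinases, was 1 of the 8 adaptors, with 76.1 CPM in naive, 23.5 CPM in primed, 29.6 CPM in d8, 33.9 CPM in d16 low, 80.3 CPM in d16 high and 60.5 CPM in d16+10p cells. In both genes naive, d16 high and d16+10p cells lay above the other 3 groups without overlap. Ptpn6, the phosphatase SHP-1, was the other inhibitor called in d16 high against primed, at 23.4 CPM against 8.83 CPM. Counted over the 44 genes, 3 were higher and 1 lower in d16 high against primed, with 24 reaching 10 CPM, where 11.3% of all genes were called. None of them was called in d16+10p against naive, where 1.48% of all genes were, or against d16 high, where 2.19% were. In d16+10p against d16 high the median log2 ratio of the 23 genes that reached 10 CPM was 0.01, and that of all genes -0.04.

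A list of 14 genes known as STAT3 targets was compared by RNA level, and STAT3 activity was not measured. The d16 high cells were chosen by Dppa5a, a gene of naive cells, and Tfcp2l1 and Klf4 in the list are naive factors. A higher level of these in d16 high cells is therefore not a measure of STAT3 activity. In d16 high against primed, 5 of 14 were 2-fold higher and 0 lower over all cells, where 11.3% of all genes were called. In Pou5f1-high clusters 5 were higher and 1, Cebpd, was lower, at 14.5 CPM against 33.1 CPM in primed cells. Tfcp2l1, a naive factor that mediates much of the LIF response, had the largest ratio, from 9.76 CPM in primed-tagged to 94.9 CPM in d16 high cells (log2 ratio 3.16, 3.10 to 3.47). Klf5, with 46.1 CPM and 176 CPM (1.91, 1.84 to 2.03), Pim1, Klf4 and Bcl3 followed. Tfcp2l1 was at 91.1 CPM in naive and 105 CPM in d16+10p cells, and at 7.04 CPM in d8 and 7.70 CPM in d16 low cells, which both had more Stat3 than naive, d16 high or d16+10p cells. In d16 high against d16 low, Tfcp2l1, Gbx2 and Pim1 were higher, and Fos, Junb, Cebpd, Cebpb and Myc were lower. Of all genes, 27.8% were called in this comparison, 1276 of them higher and 1880 lower. Fos was at 1820.0 CPM in d16 low and 357 CPM in d16 high cells, Junb at 184 CPM and 39.0 CPM, and Cebpd at 61.8 CPM and 14.5 CPM. Fos and Junb are immediate early genes that many signals induce besides STAT3.

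In d16+10p against d16 high, Klf4 and Gbx2 were called and both were lower in d16+10p cells, so that 2 of 14 targets were lower, where 2.19% of all genes were called. Klf4, which codes for a naive factor that LIF-STAT3 sustains, stood at 335 CPM in naive, 201 CPM in primed, 244 CPM in d8, 450 CPM in d16 low, 442 CPM in d16 high and 209 CPM in d16+10p cells. The log2 ratio of d16+10p against d16 high was -1.08 (-1.13 to -1.03), and against naive no target was called. In primed against naive, Tfcp2l1, Klf5 and Bcl3 were lower over all cells. In Pou5f1-high clusters Klf4 joined them, at 113 CPM in primed and 347 CPM in naive cells, and Cebpd was higher in primed cells. In d8 against primed over all cells, Cebpb was higher, at 77.3 CPM against 34.8 CPM, and Gbx2 was lower, at 1.66 CPM against 13.7 CPM, where 6.81% of all genes were called. Against the primed cells of Pou5f1-high clusters, where 22.6% were called, Klf4 (2.14-fold), Junb (2.03-fold) and Cebpb (3.69-fold) were higher in d8 and Gbx2 (8.36-fold) was lower.

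**Figure D4:**
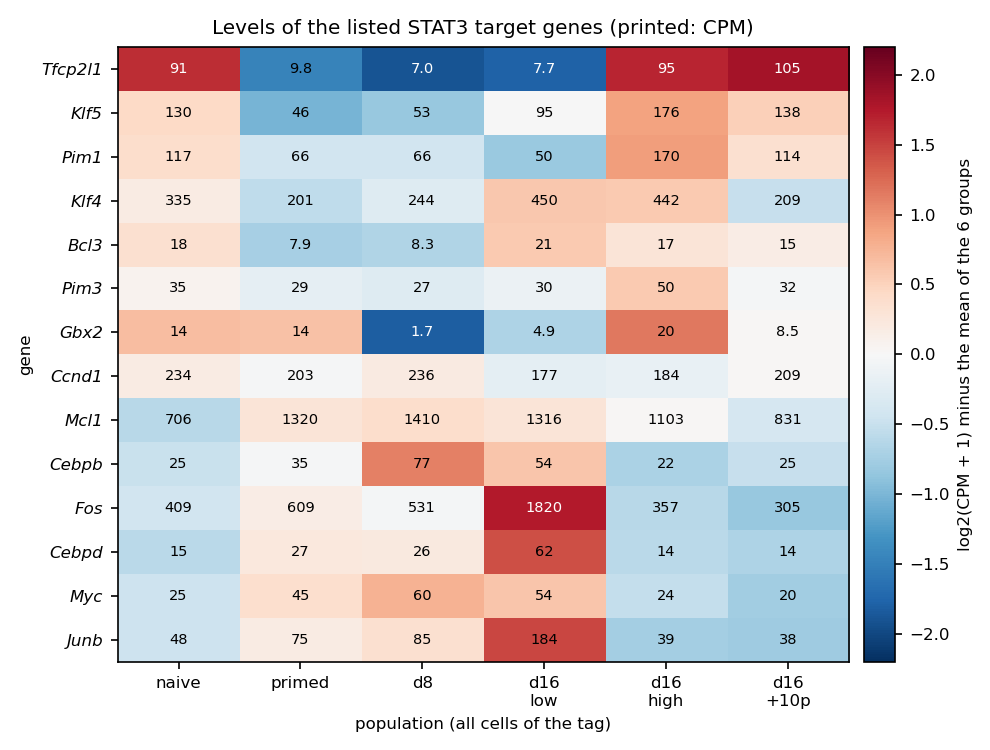
CPM of the 14 target genes (rows) in the 6 groups, all cells of a tag (columns), printed in each field. Colour is log2(CPM + 1) minus the mean of the 6 groups. Tfcp2l1, Klf5 and Pim1 are high in naive, d16 high and d16+10p cells, and Fos, Junb and Cebpd in d16 low cells.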

How the data were processed

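The authors trimmed reads with cutadapt 2.10, mapped them with Bowtie2 2.3.4.1 to Ensembl transcripts (cDNA and ncRNA, GRCm38.p6) and added up reads per gene symbol and cell barcode. The deposited values are raw counts of reads, whole numbers that were not normalized, and no collapsing to molecules is described. The authors removed cells with ambiguous tags as doublets before deposit, so no doublet caller was run here. The tag library was not used.

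Populations came from the tag at the start of each cell name. There were 0 cell names shared between tags and 0 columns of other samples. Counts were summed in Python 3.11.15 (numpy 2.4.6, scipy 1.17.1, pandas 2.3.3) and scaled to CPM. Each sum has an exact Poisson interval, each share a Clopper-Pearson interval, and each ratio an interval from the exact binomial of both sums, all at 95%. The ratio and its interval were checked on simulated Poisson counts, which hold only the counting error that the interval assumes. Spread between cells or cultures was not simulated. No test across samples was possible with 1 sample per population. Shares of cells were also taken after thinning to 5000 reads per cell, which left out 68 naive, 271 primed, 755 d8, 564 d16 low, 40 d16 high and 69 d16+10p cells.

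Cells were clustered with Seurat 5.3.0 (R 4.3.3) using the settings of the study (2000 variable genes, 56 components, 50 neighbours, resolution 0.8), without the pathway genes among the variable genes. A cluster was Pou5f1-high at 25% or more of the highest cluster's Pou5f1 level, with a read in at least 75% of its cells. Names ending in -like rest on at least 3 fixed markers with at least 20 CPM and a 2-fold higher level than in all other cells. Clusters rebuilt in this way can differ from those of the study.

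The members, the other lists and the tests were chosen with earlier results of these data known. By rule, the text names the 8 members and, of the other lists, genes with at least 20 CPM and a 2-fold ratio, at most 5 per comparison. Ptpn6, Bcl3, Gbx2, Il6, Il11 and the lower target genes in d16 high against d16 low beyond that limit were named after their values were seen. Alternatives were another pseudocount, TMM scaling (edgeR 4.0.16), cell filters, other Dppa5a thresholds and single-cell means.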

Additional observations from a re-analysis of the deposited data

How the results depend on the processing

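Over 56 member ratios, 445 of 536 alternative values stayed within the counting interval of the reported one. None of the ratios of at least 2-fold changed sign, and 43 values of smaller ratios did. The number of members 2-fold apart changed in 4 comparisons. The setting of Pou5f1-high clusters only narrowed the naive, primed and d16+10p cells and kept all d8 and d16 cells. With it, the number went from 0 to 2 in primed against naive and from 0 to 4 in d8 against primed. In d16+10p against d16 high, where Socs2 lies at the threshold, it was 1 as reported. It was 0 with a pseudocount of 10 CPM, and 2 with TMM scaling, Pou5f1-high clusters only, cells of 2000 to 8000 detected genes (limits excluded), the mean of single-cell CPM, a Dppa5a threshold of 500 CPM, or d16 high cells of cluster 5 only, an alternative chosen after seeing the data. In d16 high against d16 low, with 3 reported, the number ran from 2 to 4. No paired analysis was possible because each population was a single sample, and for the same reason no replicate could be left out.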
